A study of Mus musculus with 12 samples.

Results

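Respiratory chain complexes I to IV and ATP synthase (complex V) are built mostly from proteins encoded in the nucleus, and 83 genes for such subunits were examined in 12 mouse thymic lymphomas. Members were the rows of the count table whose Ensembl identifier maps to a protein-coding symbol starting with Nduf, Sdha to Sdhd, Uqcr, Cox4 to Cox8 or Atp5. Pseudogenes and the assembly factors named Ndufaf and Sdhaf were left out, and at least 10 counts in at least 2 tumours were required. Of 37991 rows, 85 carried such a name and 83 reached the minimum: 38 for complex I, 4 for complex II, 8 for complex III, 16 for complex IV and 17 for complex V. Cox7b2 and Cox8c fell outside, with 3 counts and 1 count over all tumours. The members nearest the limit were Cox8b, with 10 counts or more in 9 tumours, and Cox4i2 and Cox6a2, with that many in 10 tumours.

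The study compared tumours that shrank after p53 was restored with tumours that did not. All 12 tumours came from C57BL/6 mice of genotype p53neo/R172H;R26CreER/GNZ, in which a tamoxifen-activated Cre recombinase reactivates wild-type p53 beside the R172H allele. Every animal, in both groups, received tamoxifen weekly by intraperitoneal injection and was followed by magnetic resonance imaging, and the tumour was frozen after the last scan. There were 8 tumours labelled responder and 4 labelled non-responder, and no untreated tumour was analysed here. The labels give no age, batch, tumour size or time on tamoxifen, so time under treatment and group cannot be told apart. They call the 12 samples independent, and the numbers used below (responder 1 to 8, non-responder 1 to 4) only name them.

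Complex I (NADH dehydrogenase) and complex II (succinate dehydrogenase) pass electrons to ubiquinone, complex III passes them on to cytochrome c, and complex IV (cytochrome c oxidase) hands them to oxygen. Complexes I, III and IV pump protons as they do so, and ATP synthase uses the proton gradient to make ATP. Complex II is entirely nuclear-encoded, whereas the other complexes also hold a few subunits encoded by mitochondrial DNA. Several subunits of complex IV exist as tissue isoforms, with Cox6a2, Cox7a1 and Cox8b best known from heart, skeletal muscle and, for the last pair, brown fat.

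Libraries held between 20796860 and 30265753 counts. The T cell identity of the samples was visible in their markers, and all 10 T cell markers were present. Their summed level was 1605 to 4780 CPM (counts scaled to a library of fixed size) in responders and 3386 to 4929 CPM in non-responders. Much of that sum was Ptprc, which is not limited to T cells (3471 CPM in responder 7 and 881 CPM in responder 4). Of the 10 markers, 1 averaged lower in non-responders. Lck was 534 to 821 CPM in responders 1 to 3 and 39.8 to 340 CPM in responders 4 to 8. It was 587 to 876 CPM in non-responders. Cd3d was 63.5 to 172 CPM in responders and 92.2 to 125 CPM in non-responders. Other tissues were represented unevenly. Summed muscle markers ranged from 18.7 to 599 CPM in responders and from 10.6 to 25.4 CPM in non-responders, and 14 of the 15 muscle genes averaged lower in non-responders. Adipocyte markers ranged from 59.5 to 2278 CPM against 54.0 to 91.3 CPM, with 8 of 8 lower on average in non-responders, and erythroid markers from 139 to 2785 CPM against 14.8 to 363 CPM. Responder 4 was highest for muscle and fat. Trp53 itself stood at 69.3 ± 20.8 CPM (SD, n = 8) in responders and 69.2 ± 4.36 CPM (SD, n = 4) in non-responders. Its total count does not tell the restored allele from the R172H allele, so it gives no check of the labels. In bulk tumour, fewer cells of a type and less RNA per cell cannot be told apart.

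Atp5b had the highest transcript level of the 83 members in both groups. Per kilobase of the principal transcript, this beta subunit of ATP synthase, which carries the catalytic sites, averaged 595 ± 182 CPM per kb (SD, n = 8) in responders. Uqcrh, the hinge protein of complex III, followed with 334 CPM per kb. Atp5a1, the alpha subunit that alternates with beta in the F1 head, had 326 ± 77.4 CPM per kb, Ndufa4 had 304 ± 62.8 and Cox4i1 had 299 ± 50.4 (SD, n = 8 each). The spread between responders makes the order of the last 4 uncertain. Median levels in responders were 54.3 CPM per kb for complex I, 80.4 for complex II, 105 for complex III, 178 for complex IV and 194 for complex V. The lowest members were mostly tissue isoforms and paralogues: Cox4i2 averaged 1.17 CPM per kb, Ndufa4l2 2.19, Cox6b2 2.40, Atp5s 2.69 and Cox6a2 3.75. Ndufb2, a ubiquitous complex I subunit, also stood low at 2.33, where its principal transcript in the annotation is long for a subunit of the chain.

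**Figure D1:**
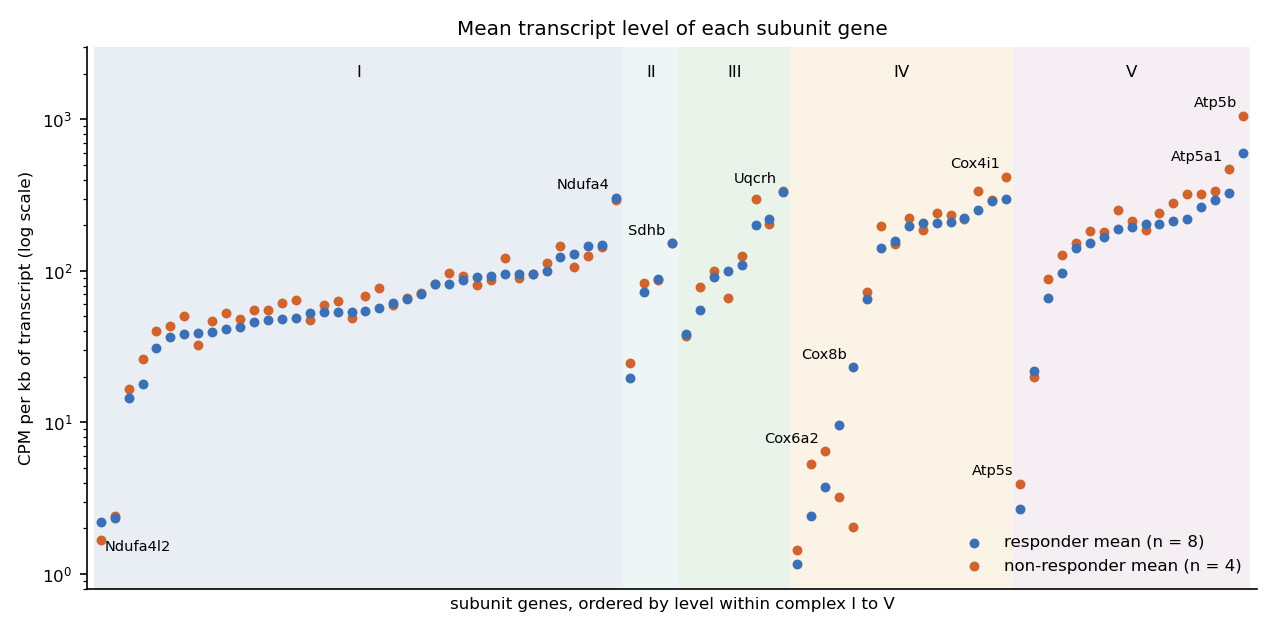
Mean level of each of the 83 members in CPM per kilobase of principal transcript (log axis), responders against non-responders, ordered within complexes I to V. Atp5b is the highest point in both groups (595 and 1058 CPM per kb), and the low points are tissue isoforms and paralogues such as Cox4i2 and Ndufa4l2.

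Members differed widely in how steady they were from tumour to tumour. The median coefficient of variation over the 12 tumours was 23.5%. Ndufa13, a complex I subunit also known as GRIM-19, was the steadiest at 9.22%, with 81.6 ± 7.21 CPM (SD, n = 8) in responders and 82.2 ± 9.33 CPM (SD, n = 4) in non-responders. Leaving aside 5 tissue isoforms of complex IV, the most variable of the other 78 members was Atp5b at 44.7%. Those isoforms lay higher, from 70.2% for Cox4i2 to 134% for Cox8b.

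Most members averaged slightly higher in non-responders, but no member passed the test. With edgeR's quasi-likelihood test, 0 of 83 members had an adjusted p under 0.05, as did 0 of the 18612 genes tested (0.0%), and the lowest adjusted p of a member was 0.117. In direction, 57 of 83 members (68.7%) averaged higher in non-responders, against 48.5% of all genes tested. The median log2 difference, non-responder minus responder, was 0.18 for the members and -0.02 for all genes. At an unadjusted p under 0.05 there were 10 members higher in non-responders, against 7.73% of all genes, and 3 lower, against 16.1% of all genes. No member separated the groups without overlap, while 2.13% of all genes did. The count of 10 fell to 2 without non-responder 4, to 5 without responder 6 and to 6 without responder 8, and was 17 without responder 3. The shares of all genes in those fits are not given here. The groups also differed in Rag1, a marker of cortical thymocytes. It was 0.41 to 2.91 CPM in responders 4 to 8 and 168 to 1756 CPM in every other tumour. How far the differences of members go with Rag1 and how far with response was not tested.

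Other tools placed a few members past the threshold. DESeq2 gave 1 member higher, Atp5b (log2 difference 0.85, adjusted p = 0.0382), and 3 lower: Cox8b (-3.46, adjusted p = 0.0024), Uqcrb (-0.59, adjusted p = 0.0476) and Cox7a1 (-1.53, adjusted p = 0.0485). Over all genes it called 2.82% higher and 10.5% lower. The limma-voom fit with quality weights gave 3 higher, namely Atp5b (0.94, adjusted p = 0.0402), Uqcr11 (0.65, adjusted p = 0.0499) and Ndufc1 (0.71, adjusted p = 0.0499), and 0 lower, where the shares of all genes were 4.37% and 4.48%. Atp5b was called by both of these tools. None of the edgeR fits with other scalings, filters or a tumour left out called any member.

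**Figure D2:**
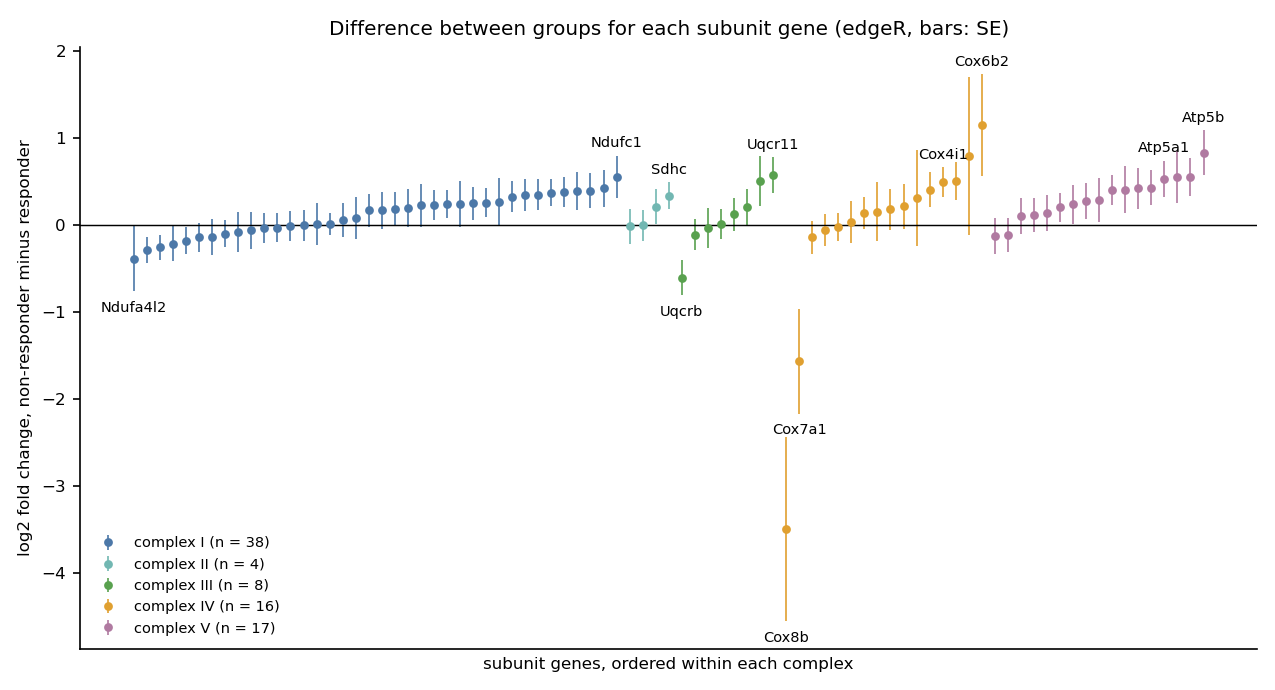
Log2 difference of each member, non-responder minus responder, with its standard error from edgeR, grouped by complex. Most points of complex V lie above 0 (15 of 17), and the points farthest below 0 are the tissue isoforms Cox8b (-3.50) and Cox7a1 (-1.57).

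Complex V had the highest median difference of the 5 complexes, though complexes were not tested against each other. Of its 17 members, 15 averaged higher in non-responders, with a median log2 difference of 0.28. An unadjusted p under 0.05 was found for 4, all higher: Atp5b, Atp5a1, Atp5k and Atp5c1. Of all genes, 7.73% were higher at that p. Atp5b (chromosome 10, 128083273 to 128090391, plus strand, GRCm38) was measured at 1131, 1500, 1782, 839, 891, 777, 1206 and 1001 CPM in responders 1 to 8. Non-responders 1 to 4 had 1545, 2121, 1429 and 3017 CPM. Non-responders 2 and 4 lay above every responder, and the remaining pair fell inside the responder range. The log2 difference was 0.83 (SE 0.26, edgeR adjusted p = 0.118), from 1141 ± 348 CPM (SD, n = 8) to 2028 ± 725 CPM (SD, n = 4). It was 0.58 to 0.99 with single tumours left out. Beside it, the summed level of 6 cortical thymocyte markers (Rag1, Rag2, Dntt, Ptcra, Cd8b1 and Cd4) also varied. Cd8b1 and Cd4 are not limited to immature T cells. The sum was 1777, 2615 and 2045 CPM in responders 1 to 3, 62.8 to 342 CPM in responders 4 to 8, and 2843, 386, 2753 and 1820 CPM in non-responders 1 to 4. Rag1 alone was 895, 1204 and 1262 CPM in responders 1 to 3 and 0.41 to 2.91 CPM in responders 4 to 8. It was 1498, 168, 1756 and 1264 CPM in non-responders 1 to 4. Most of the 342 CPM, in responder 7, was Cd8b1 (248 CPM) and Cd4 (93.1 CPM). Responders 2 and 3 were high for both and responders 4 and 6 low for both. Non-responders 1 and 3 had the highest marker sums, with 1545 and 1429 CPM of Atp5b. Responder 1 combined a sum of 1777 CPM with 1131 CPM of Atp5b, and non-responder 2 a sum of 386 CPM with 2121 CPM. The sum in non-responder 2 was not made up as in responder 7. Rag1 was 168 CPM against 0.41 CPM, and Ptcra 68.4 CPM against 0 CPM. Ptcra was higher in non-responder 2 than in any other tumour, and at most 0.12 CPM in responders 4 to 8. The part of cells with these markers in the Atp5b level was not tested.

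Atp5a1 followed the same order among the non-responders. Responders ran from 625 to 1207 CPM with a median of 749 CPM, and non-responders 1 to 4 had 961, 1331, 881 and 1476 CPM. Again non-responders 2 and 4 exceeded the highest responder. The log2 difference was 0.53 (SE 0.21, edgeR adjusted p = 0.157). Atp5c1, the gamma subunit that forms the rotating stalk, was 211 to 315 CPM in responders (median 237) and 375, 341, 227 and 371 CPM in non-responders 1 to 4. Only non-responder 3 lay inside the responder range (log2 difference 0.40, SE 0.17, edgeR adjusted p = 0.176). The other F1 subunits, Atp5d (delta) and Atp5e (epsilon), had log2 differences of 0.43 and 0.14.

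The membrane-sector subunits of ATP synthase named here were mixed. Atp5g1 and Atp5g2 were the only members of complex V that averaged lower in non-responders. Atp5k (subunit e, which helps synthase dimers form) was 65.7 to 100.1 CPM in responders, with a median of 75.6 CPM. Non-responders 1 to 4 had 78.1, 150.1, 78.3 and 169 CPM, so non-responders 2 and 4 lay above all responders and the others within (log2 difference 0.55, SE 0.22, edgeR adjusted p = 0.166). Atp5g1, Atp5g2 and Atp5g3 encode the same mature ring subunit c from separate loci. Their log2 differences were -0.12, -0.13 and 0.23, and none had an unadjusted p under 0.3. Atp5g2 shares 86.9% of its 75-base windows with genes elsewhere, so its count is uncertain. Atp5s, a low-abundance member outside the synthase core, averaged 4.30 ± 1.28 CPM (SD, n = 8) against 6.29 ± 1.64 CPM (SD, n = 4).

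**Figure D3:**
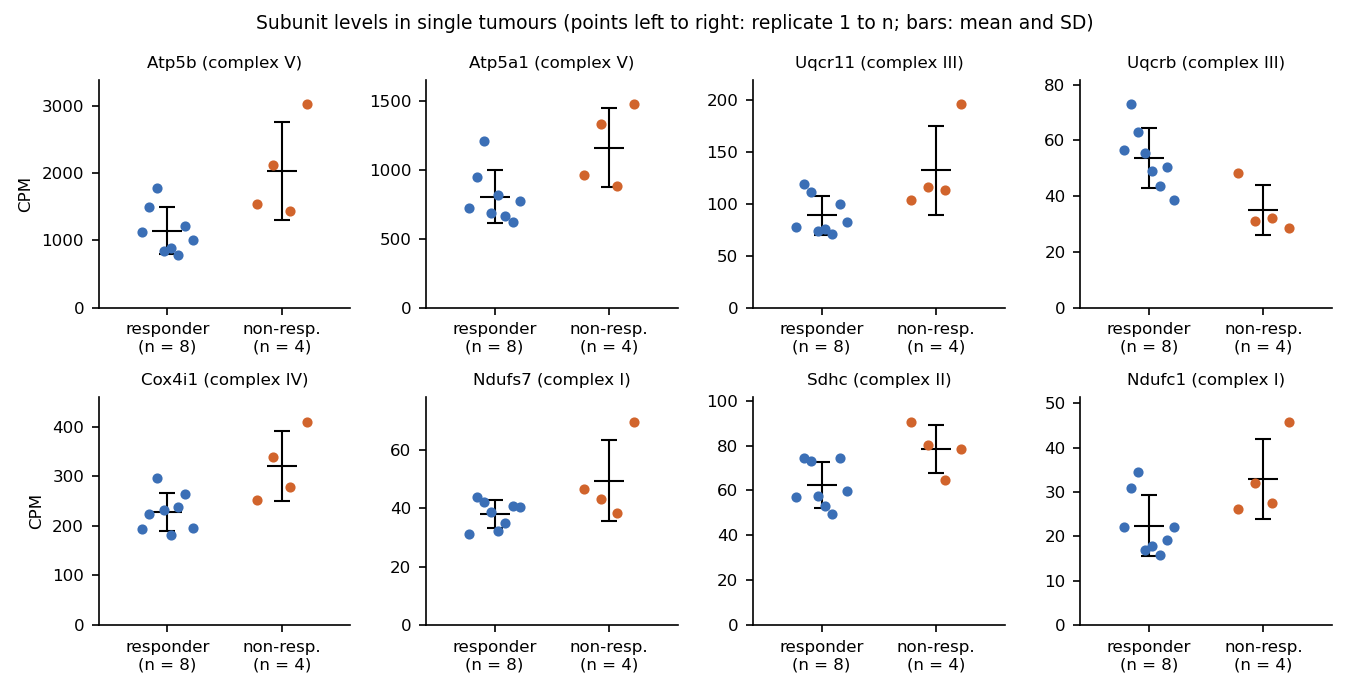
CPM in each of the 12 tumours (linear axes from 0) for 8 members from complexes I to V; points are tumours, and bars are the group mean and SD. Non-responders 2 and 4 have the 2 highest values of Atp5b (2121 and 3017 CPM), and the groups overlap for every member drawn.

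Within complex III, 2 small subunits pointed in opposite directions. Uqcrb, which lies at the ubiquinone-binding side of the complex (chromosome 13, 66900617 to 66905378, minus strand, GRCm38), had 56.5, 72.9, 62.9, 55.5, 48.9, 43.5, 50.5 and 38.6 CPM in responders 1 to 8. Non-responders 1 to 4 had 48.5, 31.2, 32.3 and 28.6 CPM. All but non-responder 1 lay below the lowest responder. The log2 difference was -0.61 (SE 0.20, edgeR adjusted p = 0.121). Uqcrb shares 29.1% of its 75-base windows with 3 genes elsewhere, whose rows summed to 0.122 ± 0.0553 CPM (SD, n = 8) in responders and 0.151 ± 0.101 CPM (SD, n = 4) in non-responders. Its exons also overlap Gm10767 on the other strand by 50 bases, and whether counting used strand is not given in the sources used here.

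Uqcr11, a small subunit of the same complex, ran from 70.6 to 119 CPM in responders with a median of 80.1 CPM. It was 104, 116, 114 and 196 CPM in non-responders 1 to 4. Only non-responder 4 exceeded the highest responder (log2 difference 0.57, SE 0.21, edgeR adjusted p = 0.134). Uqcrfs1, the Rieske iron-sulfur protein that passes electrons to cytochrome c1, averaged 75.3 ± 25.9 CPM (SD, n = 8) against 107 ± 42.4 CPM (SD, n = 4), a log2 difference of 0.50 (SE 0.28). The core proteins Uqcrc1 and Uqcrc2 had differences of 0.20 and 0.12, and Uqcrh was level at 0.00.

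Of the 16 members of complex IV, 11 averaged higher and 5 lower in non-responders, with ubiquitous subunits on both sides. Cox4i1, the common form of subunit 4, was 182 to 296 CPM in responders (median 228) and 252, 339, 279 and 410 CPM in non-responders 1 to 4. Non-responders 2 and 4 were above all responders (log2 difference 0.49, SE 0.17, edgeR adjusted p = 0.134). Cox4i1 exons overlap Emc8 on the opposite strand by 154 bases. Cox5b, a zinc-binding subunit, averaged 122 ± 16.2 CPM (SD, n = 8) against 172 ± 74.7 CPM (SD, n = 4) (log2 difference 0.50, SE 0.22, edgeR adjusted p = 0.190). Cox6a1, the non-muscle partner of Cox6a2, had a log2 difference of 0.40, Cox7a2 of 0.21 and Cox8a of 0.18. Cox6c and Cox6b1 were at 0.03 and -0.02. Cox7b averaged lower in non-responders, at 187 ± 34.6 CPM (SD, n = 4) against 207 ± 44.1 CPM (SD, n = 8), a log2 difference of -0.15 (SE 0.19, edgeR adjusted p = 0.661), and Cox7a2l, which helps join complexes into supercomplexes, was at -0.06.

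Muscle-type isoforms of complex IV gave the widest differences of the chain, and these moved with the markers of other tissues. Cox8b (chromosome 7, 140898945 to 140900446, minus strand, GRCm38) had 4.79, 5.22, 4.30, 27.8, 9.25, 11.3, 3.91 and 0.119 CPM in responders 1 to 8. Non-responders 1 to 4 had 0.184, 0.883, 0.322 and 1.54 CPM. Responder 8 had the lowest value of all, and the other 7 responders were above every non-responder. The log2 difference was -3.50 (SE 1.06, edgeR adjusted p = 0.117), with means of 8.33 ± 8.56 CPM (SD, n = 8) and 0.733 ± 0.619 CPM (SD, n = 4). Cox7a1 was 0.95 to 10.4 CPM in responders, with a median of 2.52 CPM, and 0.83, 0.98, 1.52 and 1.73 CPM in non-responders 1 to 4. It too was highest in responder 4 and lowest in responder 8 among the responders (log2 difference -1.57, SE 0.60, edgeR adjusted p = 0.148).

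Beside these values, summed muscle markers were 599 CPM in responder 4, 388 CPM in responder 6 and 18.7 CPM in responder 8, and 10.6 to 25.4 CPM in non-responders. Myh6, the cardiac alpha myosin heavy chain, was 292 CPM in responder 4, 3.13 CPM in responder 1 and 0.40 CPM in responder 8. It was 0.09, 7.16, 0.14 and 1.45 CPM in non-responders 1 to 4. Myh7, the beta form, was low throughout, at 0.25 to 2.48 CPM in responders and 0 to 0.14 CPM in non-responders. Summed adipocyte markers were 2278 CPM in responder 4 and 59.5 CPM in responder 8, and Ucp1, the brown fat uncoupling protein, was 48.2 CPM and 0.12 CPM in that pair. With the muscle score as a covariate, the log2 difference was 1.14 for Cox8b (edgeR adjusted p = 0.598) and 0.52 for Cox7a1 (edgeR adjusted p = 0.787), both with the sign turned. Every responder but responder 8 had summed muscle markers above all non-responders. Group and muscle content can therefore hardly be told apart in this fit. In that fit 5 members were higher and 0 lower at an unadjusted p under 0.05. The shares of all genes in that fit are not given here, so these counts cannot be read against them.

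The other tissue isoforms did not follow this order throughout. Cox6a2 (muscle subunit 6a) was 0.75 to 5.11 CPM in responders, again lowest in responder 8 and highest in responder 4. It was 0.32, 0.20, 15.2 and 1.91 CPM in non-responders 1 to 4. The high value in non-responder 3 stood beside muscle markers of only 16.0 CPM in that tumour, with Acta1 at 0.23 CPM and Ckm at 0.28 CPM. Cox6a2 overlaps Itgad on the opposite strand by 70 bases, and Itgad was at 8.65 CPM in the same tumour. In other tumours the pair did not move together. Itgad was 5.84 CPM in responder 1, with Cox6a2 at 1.06 CPM, and 0.42 CPM in responder 4, with Cox6a2 at 5.11 CPM. Whether reads of Itgad were counted for Cox6a2 was not tested. The log2 difference of Cox6a2, 0.79 (SE 0.91), became -1.62 without non-responder 3, the direction of Cox8b and Cox7a1. Cox6b2, the testis form of subunit 6b, averaged 1.40 ± 0.837 CPM (SD, n = 8) against 3.10 ± 2.50 CPM (SD, n = 4), a log2 difference of 1.14 (SE 0.59, edgeR adjusted p = 0.253). Cox4i2, known from lung and hypoxic cells, differed by 0.31 (SE 0.56) and by -0.63 without non-responder 3.

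**Figure D4:**
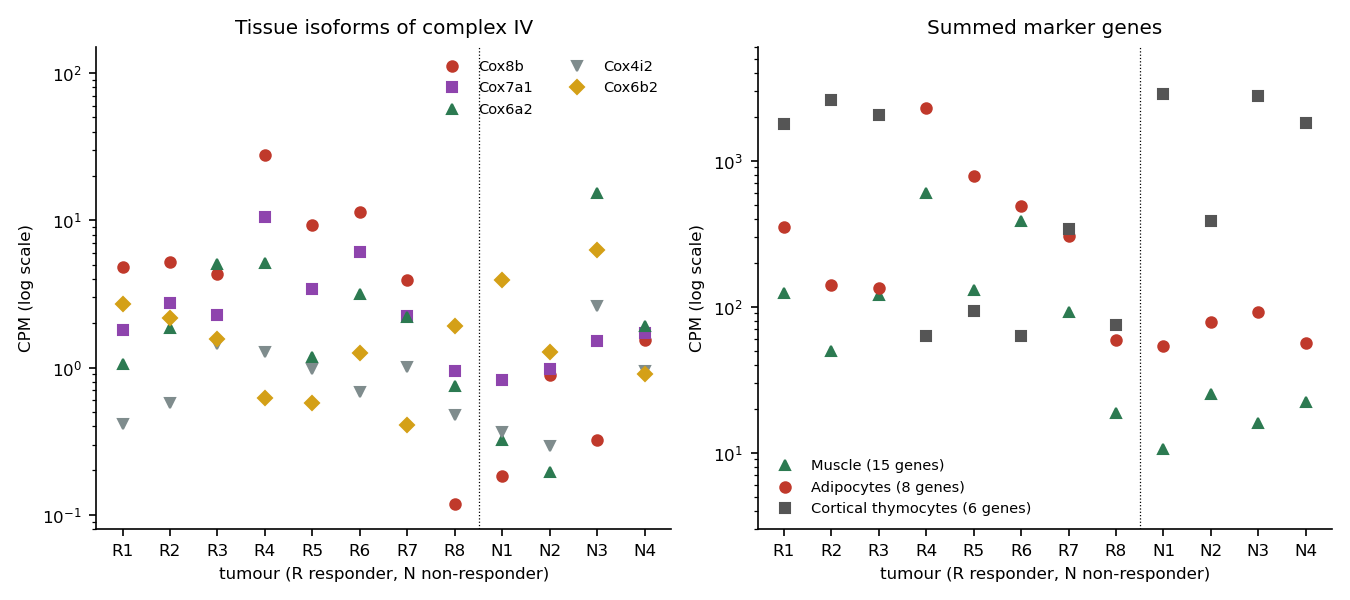
CPM per tumour (log axes) for 5 tissue isoforms of complex IV on the left and for the summed markers of muscle, adipocytes and cortical thymocytes on the right, with a dotted line between responders and non-responders. Cox8b is highest in responder 4 (27.8 CPM, muscle sum 599 CPM), whereas Cox6a2 is highest in non-responder 3 (15.2 CPM, muscle sum 16.0 CPM).

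Complex I, the largest set, spread on both sides of level. Of 38 members, 24 averaged higher and 14 lower in non-responders, with a median log2 difference of 0.16 and a range from -0.39 to 0.55. Unadjusted p fell under 0.05 for 3, all higher, Ndufc1 and Ndufs7 among them, where 7.73% of all genes were higher at that p.

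Ndufs7, which carries the last iron-sulfur cluster before ubiquinone, averaged 38.0 ± 4.72 CPM (SD, n = 8) against 49.4 ± 13.9 CPM (SD, n = 4), a log2 difference of 0.38 (SE 0.17, edgeR adjusted p = 0.203). Ndufc1, an accessory subunit of the membrane arm, was 15.8 to 34.6 CPM in responders and 26.1, 31.9, 27.6 and 45.8 CPM in non-responders 1 to 4. Only the last exceeded all responders (log2 difference 0.55, SE 0.24, edgeR adjusted p = 0.190). Responders 1 to 3 had 22.0, 30.8 and 34.6 CPM, and responders 4 to 8, which were low for Rag1, had 15.8 to 22.0 CPM. Whether Ndufc1 goes with Rag1 was not tested. Among further core subunits of the matrix arm, log2 differences were 0.25 (Ndufs1), -0.14 (Ndufs3), 0.42 (Ndufs8), 0.25 (Ndufv1) and -0.18 (Ndufv2). Ndufa4, now usually counted with complex IV, was level at -0.06, and its low-abundance paralogue Ndufa4l2 differed by -0.39 (SE 0.37).

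Succinate dehydrogenase was near level. Sdhc, a membrane anchor, was 49.3 to 74.5 CPM in responders with a median of 58.6 CPM, and 90.7, 80.0, 64.6 and 78.4 CPM in non-responders 1 to 4. All but non-responder 3 exceeded every responder (log2 difference 0.33, SE 0.15, edgeR adjusted p = 0.214). The flavoprotein Sdha differed by 0.21 (SE 0.20), while the iron-sulfur subunit Sdhb and the second anchor Sdhd stood at -0.01 and -0.02. Each of the last pair turned sign under at least 1 alternative scaling.

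As a share of all counts, the 83 members took 0.859 to 1.13% in responders and 0.928 to 1.29% in non-responders. Complex V accounted for 0.397 ± 0.0604% (SD, n = 8) against 0.533 ± 0.113% (SD, n = 4), of which Atp5b and Atp5a1 together made 0.196 ± 0.0406% and 0.306 ± 0.0818%. Complex I took 0.25 ± 0.0183% against 0.256 ± 0.0289%, complex III 0.0919 ± 0.00966% against 0.0962 ± 0.013%, and complex IV 0.166 ± 0.0146% against 0.178 ± 0.0305%. Ranges of the 2 groups overlapped for every complex. Subunits encoded by mitochondrial DNA lay the other way round, with 1.70 to 2.89% of counts in responders and 1.25 to 1.57% in non-responders.

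**Figure D5:**
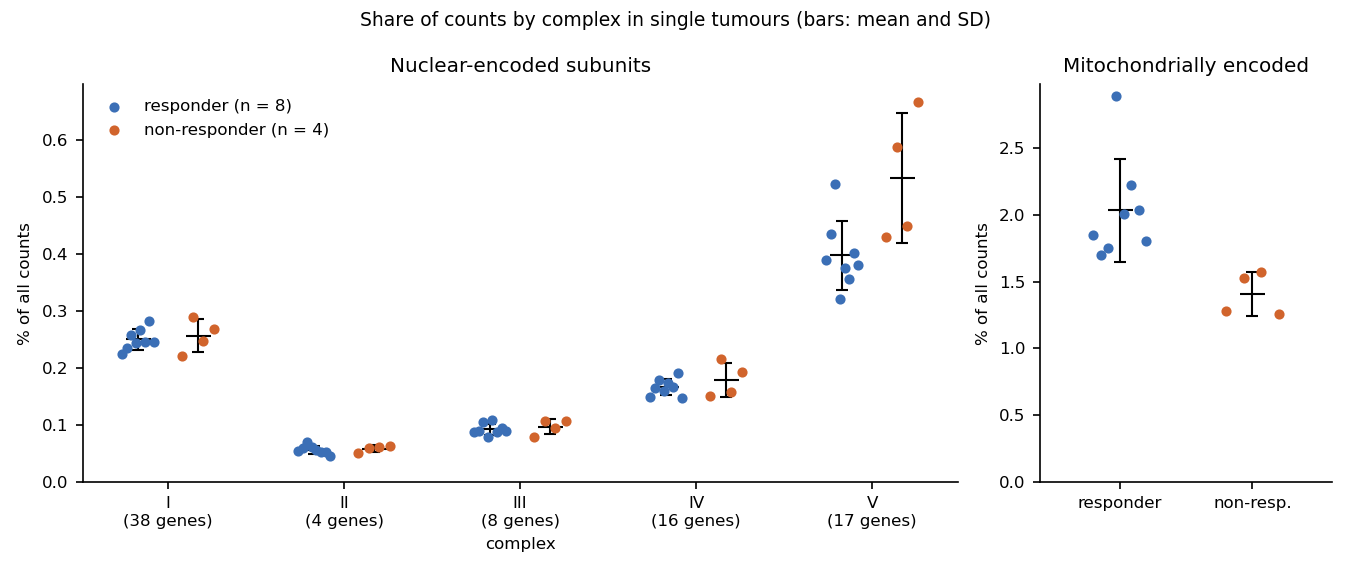
Percent of all counts in each tumour (points, with bars for mean and SD) for the members of complexes I to V and for the mitochondrially encoded subunits. Complex V spans 0.32 to 0.521% in responders and 0.429 to 0.665% in non-responders, while the mitochondrially encoded subunits span 1.70 to 2.89% and 1.25 to 1.57%.

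Mitochondrially encoded partners of these subunits had 12 genes in the test. All 12 averaged lower in non-responders, with a median log2 difference of -0.29. Of these, 3 had an unadjusted p under 0.05, where 16.1% of all genes were lower at that p. The lowest p was that of mt-Co3, a core subunit of complex IV, at 5241 to 8219 CPM in responders and 3855 to 5180 CPM in non-responders, without overlap (log2 difference -0.56, SE 0.17, edgeR adjusted p = 0.117). The next lowest p, with a wider log2 difference, was that of mt-Atp8, a small subunit of ATP synthase, at 15.5 ± 3.47 CPM (SD, n = 8) against 10.1 ± 1.93 CPM (SD, n = 4), a log2 difference of -0.62 (edgeR adjusted p = 0.137). With the muscle score as a covariate, the log2 difference was -0.33 for mt-Co3 (edgeR adjusted p = 0.662) and -0.35 for mt-Atp8 (edgeR adjusted p = 0.744). The share of mitochondrially encoded subunits was highest in responder 4 (2.89%) and responder 6 (2.22%), which also had the highest muscle sums. Libraries were made from messenger RNA, and how evenly mitochondrial transcripts were captured between tumours was not tested.

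Genes that build or feed the chain were mixed. Among 47 assembly factors, 27 averaged higher and 20 lower in non-responders (median log2 difference 0.03). At an unadjusted p under 0.05, 3 were higher and 0 lower, against 7.73% and 16.1% of all genes. Those with the lowest p were Bcs1l, which inserts the Rieske protein into complex III (0.45, edgeR adjusted p = 0.162), and Tmem186, a complex I assembly protein (0.41, edgeR adjusted p = 0.167). Sco2, a copper chaperone of complex IV known as a p53 target, was listed at 0 counts in all 12 tumours; the annotation places it in an overlapping locus, and how reads there were assigned was not tested. Electron carriers, listed together with enzymes that make or reduce ubiquinone, numbered 18. Of these genes, 12 averaged higher and 2 were lower at that p, against 16.1% of all genes. These were Etfb, part of the flavoprotein that carries electrons from fatty acid oxidation (-0.61, edgeR adjusted p = 0.138), and Coq8a, needed for ubiquinone synthesis (-1.48, edgeR adjusted p = 0.166). Coq8a was 92.0 CPM in responder 4, and its log2 difference was 0.28 with the muscle score as a covariate (edgeR adjusted p = 0.913).

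Of 18 genes of the citric acid cycle and the pyruvate dehydrogenase complex, 10 averaged higher and 8 lower. None had an unadjusted p under 0.05, and the median was 0.11. Mdh2, the mitochondrial malate dehydrogenase, and Idh2, an NADP-dependent isocitrate dehydrogenase, had log2 differences of 0.62 (SE 0.29, edgeR adjusted p = 0.211) and 0.79 (SE 0.38, edgeR adjusted p = 0.226). Regulators of mitochondrial gene expression were 17 genes, with 4 higher and 1 lower at that p, against 7.73% and 16.1% of all genes. Polrmt, the mitochondrial RNA polymerase, averaged 38.7 ± 9.31 CPM (SD, n = 8) against 62.2 ± 12.1 CPM (SD, n = 4), a log2 difference of 0.69 (SE 0.20, edgeR adjusted p = 0.117). Ppargc1a, a coactivator abundant in brown fat and muscle, averaged 2.21 ± 2.08 CPM (SD, n = 8) against 0.129 ± 0.0894 CPM (SD, n = 4), a difference of -4.05 (SE 1.08, edgeR adjusted p = 0.117). With the muscle score as a covariate its difference was -0.26, while that of Atp5b was 0.93 and that of Uqcrb -0.55.

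Promoters of chain genes are known for sites of NRF1, ETS-family factors such as GABP, YY1 and SP1. RefSeq windows from 250 bases before to 50 after a start (GRCm38.p6) were found for 68 of the 83 members, 73 windows in all. GCGCATGCG, an NRF1 sequence, stood on either strand in 11.0% of member windows and in 1.75% of all 32851 windows. The ETS sequence CCGGAAG was in 21.9% against 8.86%, the YY1 sequence AAGATGGC in 13.7% against 2.75%, and the SP1 sequence GGGCGG in 39.7% against 35.7%. A match describes letters and not a bound factor, and the windows of all genes were not matched for base composition.

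The promoters of 5 members described above are given from 250 bases before to 30 bases after the RefSeq start, 5′ to 3′ on the gene's strand, in GRCm38.p6. They were chosen after their values were seen, to set 4 of the 57 members that averaged higher in non-responders beside the muscle isoform Cox8b. Whether such matches go with the direction of a difference was not tested. Capitals mark matches to the 4 sequences on either strand. They lie at chr10:128083057-128083336 (plus) for Atp5b, chr10:80406792-80407071 (minus) for Uqcr11, chr5:108434370-108434649 (minus) for Atp5k, chr3:51408926-51409205 (minus) for Ndufc1 and chr7:140900417-140900696 (minus) for Cox8b.
Atp5b: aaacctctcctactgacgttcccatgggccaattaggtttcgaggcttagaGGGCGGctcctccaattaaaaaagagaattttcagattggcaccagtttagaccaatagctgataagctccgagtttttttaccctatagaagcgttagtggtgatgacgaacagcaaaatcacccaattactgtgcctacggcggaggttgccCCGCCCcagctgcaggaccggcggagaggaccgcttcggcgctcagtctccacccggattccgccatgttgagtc
Uqcr11: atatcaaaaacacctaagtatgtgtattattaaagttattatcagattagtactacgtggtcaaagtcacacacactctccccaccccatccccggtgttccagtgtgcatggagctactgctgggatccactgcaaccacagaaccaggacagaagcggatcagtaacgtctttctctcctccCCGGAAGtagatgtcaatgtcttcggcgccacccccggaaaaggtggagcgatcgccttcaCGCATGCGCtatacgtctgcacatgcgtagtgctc
Atp5k: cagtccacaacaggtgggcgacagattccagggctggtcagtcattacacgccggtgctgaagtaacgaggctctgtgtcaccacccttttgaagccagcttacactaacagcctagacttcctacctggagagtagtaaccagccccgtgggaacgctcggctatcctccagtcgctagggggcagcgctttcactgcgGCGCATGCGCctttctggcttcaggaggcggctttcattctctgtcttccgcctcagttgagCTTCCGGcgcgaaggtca
Ndufc1: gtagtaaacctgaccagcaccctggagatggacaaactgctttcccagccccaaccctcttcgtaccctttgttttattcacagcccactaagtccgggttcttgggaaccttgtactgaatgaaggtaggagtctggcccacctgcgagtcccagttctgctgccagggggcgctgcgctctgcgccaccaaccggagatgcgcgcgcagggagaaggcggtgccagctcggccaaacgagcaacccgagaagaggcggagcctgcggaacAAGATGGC
Cox8b: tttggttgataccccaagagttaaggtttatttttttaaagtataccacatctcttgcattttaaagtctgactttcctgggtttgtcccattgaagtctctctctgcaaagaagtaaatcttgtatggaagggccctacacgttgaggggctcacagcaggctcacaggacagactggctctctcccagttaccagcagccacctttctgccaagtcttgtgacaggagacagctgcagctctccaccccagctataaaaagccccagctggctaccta
Atp5b holds SP1 matches on both strands, Uqcr11 an ETS and an NRF1 match, Atp5k an NRF1 sequence that reads on both strands and an ETS match just after the start, and Ndufc1 a YY1 match after the start. The Cox8b window holds none of these letters, and this is not particular to Cox8b. The windows of Atp5c1, Atp5d, Cox5b and Uqcrfs1, which averaged higher in non-responders, hold none either. The same is true of Atp5g1 and Cox7b, which averaged lower.

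Several features of the members bear on how well they can be counted. The principal transcripts had a median of 838 bases, from 360 to 4715, and 50 of 83 were under 1000 bases. There were 25 members that shared at least one 75-base window, the read length, with a gene elsewhere, and 7 that shared over 25% of theirs: Ndufb4, Ndufs3, Uqcrb, Cox7c, Atp5g2, Atp5h and Atp5l. Exons of 27 members overlap a gene on the opposite strand, including Atp5a1, which overlaps Haus1 by 129 bases.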

How the data were processed

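RNA was measured by sequencing in 12 tumours, 8 responders and 4 non-responders. Per the labels' protocols, TruSeq mRNA libraries were sequenced as 75-base read pairs, 4 libraries to a lane. The values deposited by the authors are raw counts per Ensembl gene in 1 table of 37991 rows. HTSeq and DESeq are named in the submitters' processing notes without versions. Those notes name the build NCBIM37 and the labels' protocols name mm10, and neither an aligner nor the strand setting was found in either. No columns of other samples were present.

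Symbols, biotypes and principal transcripts came from GENCODE M21 (GRCm38), which matched 32919 rows; the 5072 rows without a symbol held 2.49 to 3.80% of counts. Coordinates are from that annotation and not from the authors' counting. The tests used edgeR 4.0.16 in R 4.3.3 (filterByExpr, TMM, robust quasi-likelihood fit, Benjamini-Hochberg adjustment over 18612 genes, threshold 0.05), with groups as the only term. All 83 members passed the filter. Log2 differences are non-responder minus responder, and their SE is the size of the difference divided by the square root of F. CPM is scaled by TMM. The fit was checked on simulated data. Since nothing but the labels calls the tumours independent, p-values measure the spread between these samples.

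Alternatives were DESeq2 1.42.0, limma 3.58.1 voom with quality weights, scaling by RLE or upper quartile, fitting without the filter or with a stricter one or without robust dispersion, leaving out mitochondrial and haemoglobin genes, a muscle score as covariate, other assignments of Ndufa4 and Ndufa4l2, and each tumour left out. Named genes are, per complex, the 3 members with the lowest p and the one with the highest CPM, all Sdh genes, tissue isoform pairs, the Atp5g genes, members at the count minimum, Trp53, Sco2 and, from every pathway list, the 2 lowest-p genes. Members named for level, variability, subunit role, antisense overlap or promoter were chosen after their values were seen. Members and lists were chosen with earlier results of these data known. Rows without a gene name stayed in library sizes as Ensembl identifiers. One member's values are not reported here.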

Additional observations from a re-analysis of the deposited data

Results flagged for a closer look

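Of 94 groups checked, 11 held 1 tumour far from the others of its group, by a gap limit meant to mark about 1 group in 20 by chance. Whether 11 is more than chance would give was not tested. Among members these were Cox6a2 in non-responder 3 (15.2 CPM, the others 0.196 to 1.91), Cox6b1 in responder 5 (196 CPM, the others 119 to 150) and Cox8b in responder 4 (27.8 CPM, the others 0.119 to 11.3). Uqcr11 stood apart in non-responder 4 (196 CPM, the others 104 to 116), and Uqcrfs1 in responder 3 (132 CPM, the others 42.4 to 79.8).

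Among the pathway genes, responder 3 stood apart for Mdh2 (350 CPM, the others 128 to 220) and Idh2 (143 CPM, the others 25.4 to 67.3), both enzymes of mitochondrial carbon metabolism. Responder 4 did so for Coq8a (92.0 CPM, the others 10.7 to 43.4) and mt-Co3 (8219 CPM, the others 5241 to 6369). Bcs1l was highest in responder 8 (18.0 CPM, the others 11.0 to 13.4), and mt-Co3 in non-responder 2 (5180 CPM, the others 3855 to 3915).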

How the results depend on the processing

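No paired analysis was possible because the labels give no replicate numbers shared between groups. Of 41 genes followed under 9 alternatives and with each of 12 tumours left out, 28 kept their sign throughout. The count of members past the threshold was 0 in every edgeR fit, 4 with DESeq2 and 3 with limma-voom. Members higher at an unadjusted p under 0.05 (10) numbered 18 with limma-voom, 5 with the muscle score as covariate and 2 to 17 with a tumour left out. Members lower (3) numbered 5 with upper-quartile scaling, 0 with the muscle score and 2 to 3 with a tumour left out. Members without overlap (0) numbered 0 to 3 with a tumour left out. The shares of all genes at that p or without overlap are not given for these alternatives. The counts therefore cannot be read against them. With Ndufa4 and Ndufa4l2 counted in complex IV, the responder share was 0.231% for complex I and 0.185% for complex IV. Log2 differences turned sign with the muscle score for Cox8b (1.14), Cox7a1 (0.52), Cox6b2 (-0.12), Cox7a2 (-0.054), Sdhd (0.40) and Coq8a (0.28), and with limma-voom for Cox6a2 (-0.31). Small values turned sign under RLE scaling, no filter, DESeq2 and limma-voom for Sdhb (0.011, 0.037, 0.011, 0.078), Sdhd (0.0034, 0.037, 0.0034, 0.062) and Trp53 (0.015, 0.045, 0.016, 0.048), and with no filter for Cox6b1 (0.032). With a tumour left out, sign turned for Cox4i2 (-0.63 to 0.62), Cox6a2 (-1.62 to 1.19), Cox6b1 (-0.076 to 0.073), Cox8a (-0.043 to 0.37), Ndufa4 (-0.20 to 0.069), Sdhb (-0.086 to 0.12), Sdhd (-0.13 to 0.10) and Trp53 (-0.053 to 0.12). The median of all genes was -0.02, -0.08 with upper-quartile scaling and -0.11 with no filter. Apart from left-out tumours and Ndufa4, whose construction shows why, the cause was not tested. Depth bears most on members with few counts. These include Cox4i2, with 273 counts over all tumours, and Cox8b, which had 10 counts or more in 9 of the 12 tumours.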
